A study of Mus musculus with 16 samples.

Results

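This account covers 32 genes of T lymphocytes, measured in hepatic inflammatory cells and in whole liver of mice with diet-induced cirrhosis. They were listed as receptor, helper, regulatory and naive state genes. All 32 were found among the 33269 gene names on the array, and the brightest probe stood for a gene that had several. The Cd8a and Cd8b1 chains of cytotoxic T cells were not analysed here.

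T cells see antigen through a receptor whose signal is passed into the cell by the CD3 chains and the zeta chain, which the kinases Lck and Zap70 then act on. Costimulatory receptors such as Cd28 and Icos add to that signal, and Ctla4 holds it back. T cells that have not met antigen carry Ccr7, the receptor that leads them to lymph nodes, and the factors Tcf7 and Lef1. Regulatory T cells are defined by the factor Foxp3. In chronic liver injury, T cells gather around the portal tracts together with other leukocytes.

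In all 16 one-colour arrays were compared, 4 in each of 4 groups: inflammatory cells ADSC, inflammatory cells PBS, liver ADSC and liver PBS. All samples came from female C57Bl/6 mice made cirrhotic by 40 weeks on an atherogenic high-fat diet, so that no group represents an uninjured liver. The ADSC mice received adipose tissue-derived stem cells, a mesenchymal cell type grown from the inguinal fat of GFP-transgenic mice, as 2 injections of 100000 cells under the capsule of the spleen. The PBS mice received phosphate-buffered saline, and both sample types were collected 2 weeks after treatment ended. Arrays are numbered 7 to 10 for ADSC and 11 to 14 for PBS. Whether each array is a separate animal is not given by the labels, so p-values measure the spread between samples, which may be technical. They also describe the extraction from tumor-infiltrating inflammatory cells and from blood, which leaves the way the cells were isolated unsettled. Levels below are log2 of the background-subtracted Cy3 signal minus the array's own 75th percentile of it, so that a level of 0 is the 75th percentile of that array. Such levels compare a gene between arrays and not 1 gene with another, and the number of arrays limits their precision.

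Between 51.6% and 66.3% of spots were well above background on an array, and the 75th percentile of the signal ran from 123.4 on inflammatory cells ADSC 8 to 552.8 on liver PBS 12. Hepatocyte transcripts were still present in the cell fraction: Alb, the albumin gene, lay between 4.58 and 6.69 on the 8 inflammatory cell arrays, against 8.99 to 9.72 on the 8 liver arrays. The B cell receptor gene Cd79a lay between -1.90 and 0.57 in inflammatory cells. Transcripts of the exocrine pancreas were high on 3 inflammatory cell arrays, where the carboxypeptidase gene Cpa1 stood at 9.50 (ADSC 10), 7.47 (PBS 11) and 8.76 (PBS 13), against -0.78 to 3.35 on the other 5. The main counts and medians of the T cell genes that involve inflammatory cells are also given without these 3 arrays.

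The first comparison, of inflammatory cells with whole liver, tests whether the isolated fraction was richer in T cell transcripts. Of the 32 genes, 28 were well above background on all 8 inflammatory cell arrays. On the 8 liver arrays 17 were above background throughout, 9 on some arrays and 6 on none. All 29 genes that could be tested were higher in inflammatory cells by limma with Benjamini-Hochberg adjustment over all genes (adjusted p from 2.06e-12 to 9.46e-06). Among all 22109 genes tested, 48.9% were higher. Because the filter asked for 4 of the 16 arrays, genes could enter through the inflammatory cells alone. Only 19 of the 29 could also be tested within liver. For the others the calls, fold sizes and separation set cell signal against mostly undetected liver signal. In a fit limited to genes above background on every array, all 17 such members were higher, against 37.8% of all 12823 genes. The median difference of the 29 genes was 3.71 on the log2 scale, against 0.35 for all genes. It stayed at 3.71 with 3 genes that no liver array measured set to a nominal limit, described below for Cd4. Of the 26 genes above background on at least 1 liver array, 24 differed by at least 8-fold. For 28 of the 29 genes every inflammatory cell array lay above every liver array, against 33.9% of all genes, and the exception was Cd247. In whole tissue and cell fractions, a smaller number of T cells and less RNA per T cell cannot be told apart.

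**Figure D1:**
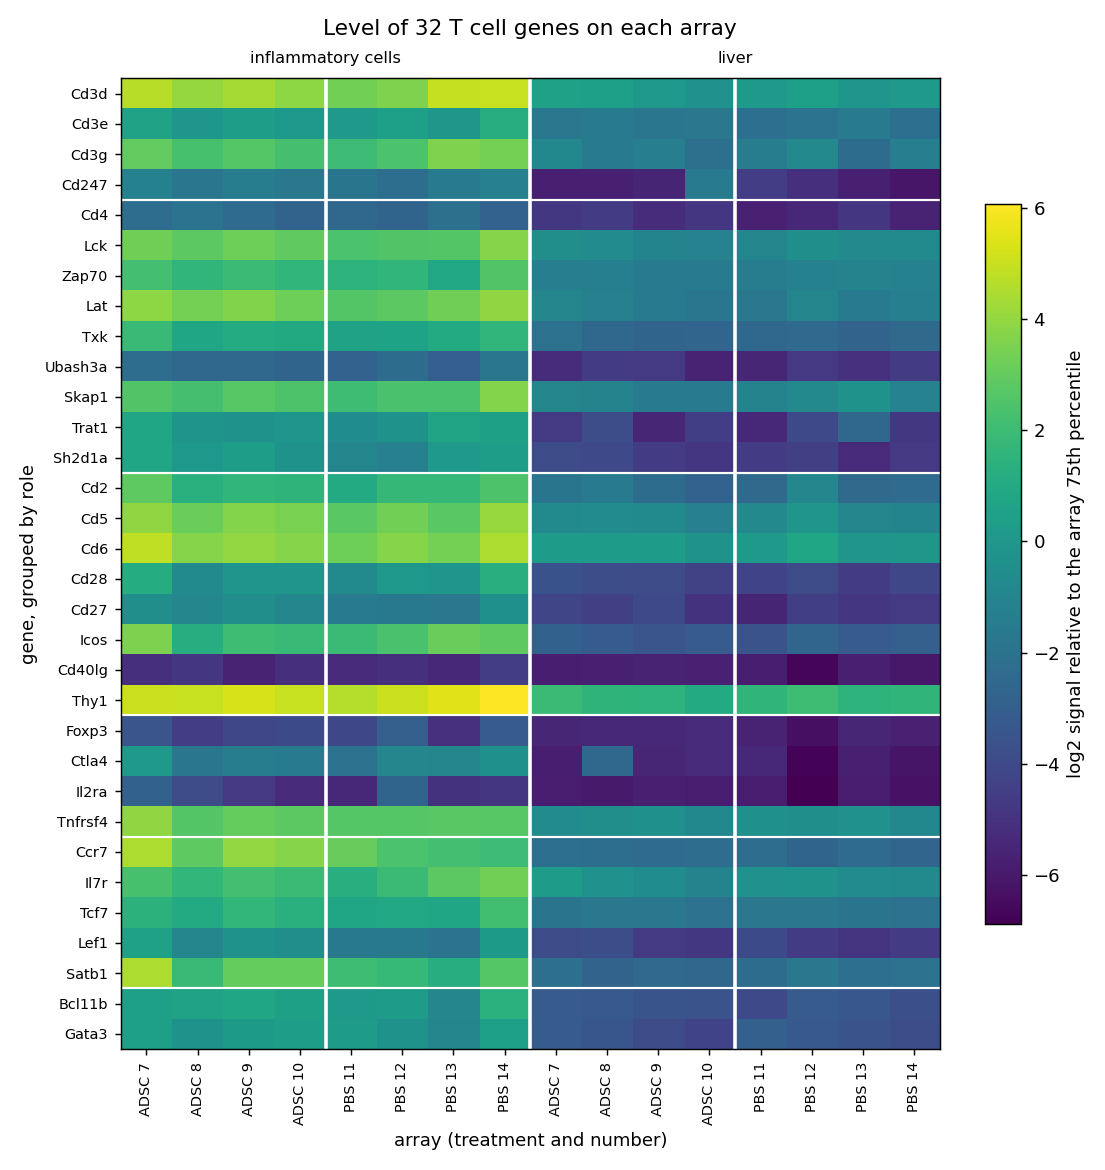
Level of the 32 genes (rows, grouped by role) on the 16 arrays (columns), on the log2 scale relative to the 75th percentile of each array, with inflammatory cells at the left and liver at the right. Inflammatory cell columns are brighter in the rows of the 29 tested genes, the rows of Cd40lg, Foxp3 and Il2ra are dark on nearly every array, and single liver arrays stand out for Cd247 (ADSC 10) and Ctla4 (ADSC 8).

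The receptor complex was described first, since its chains define the lineage. Cd3d, the delta chain of CD3, stood at 4.67, 4.01, 4.34 and 3.86 in inflammatory cells ADSC (arrays 7 to 10) and at 3.34, 3.58, 4.93 and 4.98 in inflammatory cells PBS (arrays 11 to 14). In liver it stood at 0.53, 0.43, 0.03 and -0.34 with ADSC and at 0.13, 0.45, -0.09 and 0.11 with PBS. Every inflammatory cell array was thus above every liver array, by 4.06 ± 0.24 (SE) on average, a 16.7-fold difference with an adjusted p of 2.59e-10 in limma.

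Cd3g, the gamma chain, behaved in the same way, with a difference of 4.15 ± 0.27. The epsilon chain gene Cd3e had the smallest difference of the 26 genes above background on any liver array, 2.15 ± 0.17 or 4.42-fold. Its levels were 0.60, -0.07, 0.38 and 0.04 in inflammatory cells ADSC, 0.08, 0.45, 0.00 and 1.18 in inflammatory cells PBS, -1.67, -1.56, -1.79 and -1.67 in liver ADSC, and -2.15, -1.95, -1.56 and -2.16 in liver PBS. Cell and liver arrays of Cd3e did not overlap, and its probe was above background on all 16 arrays.

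Cd247, the zeta chain, was above background on all 8 inflammatory cell arrays and on 1 liver array. It stood at -1.21, -1.81, -1.39 and -1.72 in inflammatory cells ADSC and at -1.86, -2.21, -1.47 and -1.23 in inflammatory cells PBS. Liver ADSC arrays gave -5.75, -5.76, -5.55 and -1.59, and liver PBS arrays -4.51, -5.09, -5.73 and -6.11. The value of -1.59 on liver ADSC 10 lay among the inflammatory cell values, and the other 7 liver arrays lay between -6.11 and -4.51. The other 3 chains were not raised on that array, where Cd3d and Cd3g had their lowest liver ADSC values.

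The stretch of 250 bases upstream of the start of each of these 4 genes is printed here. They were chosen as the members that make up 1 complex. The sequences are those of RefSeq on build GRCm38.p6, 5′ to 3′ on the strand of the gene, and the array itself was annotated on the build mm8. Cd3d lies at chr9:44981536-44981785 on the plus strand and Cd3g at chr9:44980432-44980681 on the minus strand, so that the genes are read away from each other. Cd3e lies at chr9:45009612-45009861 on the minus strand and Cd247 at chr1:165788431-165788680 on the plus strand. Capitals mark letters of motifs searched on both strands, CTTTGA and CTTTGT for TCF-1 and LEF-1, TGTGGT and TGCGGT for RUNX factors, GGAAGT for ETS factors and AGATAA for GATA factors.
Cd3d: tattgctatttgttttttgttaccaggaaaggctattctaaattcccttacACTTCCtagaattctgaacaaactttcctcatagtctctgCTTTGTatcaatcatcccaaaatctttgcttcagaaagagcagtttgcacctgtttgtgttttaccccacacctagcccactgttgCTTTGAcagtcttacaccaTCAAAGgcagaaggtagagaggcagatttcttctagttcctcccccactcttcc
Cd3g: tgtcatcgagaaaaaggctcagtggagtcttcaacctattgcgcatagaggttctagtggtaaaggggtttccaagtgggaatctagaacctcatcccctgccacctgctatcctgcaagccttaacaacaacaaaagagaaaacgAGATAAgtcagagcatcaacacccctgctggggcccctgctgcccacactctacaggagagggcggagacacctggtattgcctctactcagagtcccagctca
Cd3e: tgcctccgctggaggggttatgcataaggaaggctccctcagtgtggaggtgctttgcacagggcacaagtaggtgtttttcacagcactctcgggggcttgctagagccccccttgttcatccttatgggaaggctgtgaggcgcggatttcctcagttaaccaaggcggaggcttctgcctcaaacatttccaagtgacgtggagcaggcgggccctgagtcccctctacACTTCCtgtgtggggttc
Cd247: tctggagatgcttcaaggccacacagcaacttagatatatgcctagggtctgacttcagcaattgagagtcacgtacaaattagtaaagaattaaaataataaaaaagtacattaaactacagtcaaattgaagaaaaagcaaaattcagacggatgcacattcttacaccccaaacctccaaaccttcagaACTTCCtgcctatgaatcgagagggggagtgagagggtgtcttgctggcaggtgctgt
The Cd3d stretch held 3 matches of the TCF-1 and LEF-1 motifs and 1 of the ETS motif, Cd3g 1 of the GATA motif, and Cd3e and Cd247 1 ETS match each. Promoter windows of 22 of the 32 genes were matched by symbol, 35 windows in all, each of 250 bases before the start. The ETS motif was in 48.6% of these windows and in 19.7% of all 32851 windows, the TCF-1 and LEF-1 motifs in 40.0% and 27.6%, the RUNX motifs in 20.0% and 18.6%, and the GATA motif in 8.57% and 9.99%. These are matches of letters and say nothing of binding in these samples.

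The coreceptor and the kinases and adaptors of receptor signalling followed. All 9 were higher in inflammatory cells. Lck, the kinase that phosphorylates the CD3 chains, stood at 3.25, 2.81, 3.23 and 2.89 in inflammatory cells ADSC and at 2.39, 2.57, 2.60 and 3.74 in inflammatory cells PBS, against -0.48, -0.64, -1.06 and -1.15 in liver ADSC and -0.93, -0.41, -0.78 and -0.74 in liver PBS. The difference was 3.71 ± 0.19, with every cell array above every liver array. Zap70, the kinase that docks on the phosphorylated chains, differed by 3.08 ± 0.19, and Lat, the membrane scaffold it phosphorylates, by 4.72 ± 0.20.

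Cd4, the coreceptor of helper T cells, was above background on all 8 inflammatory cell arrays and on no liver array. It stood at -2.27, -1.96, -2.36 and -2.73 in inflammatory cells ADSC and at -2.56, -2.71, -2.12 and -2.80 in inflammatory cells PBS. In liver the signal gave only a limit, and Cd4 was at least 2.43-fold higher in inflammatory cells by a nominal limit. The measured means differed by 2.67 on the log2 scale. For this limit each liver array was given the lowest signal of any probe above background on it, unless the Cd4 probe itself was brighter. The detection limit of a given probe can lie above that lowest signal, so the limit is not a strict bound. Ubash3a, a phosphatase-like protein that dampens receptor signalling, had no liver array above background either. By the same nominal limit it was at least 2.36-fold higher.

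The Tec family kinase Txk and the adaptor Skap1 each differed by 3.59. Trat1, which stabilises the receptor complex, differed by 4.49 ± 0.37, and Sh2d1a, the adaptor of the SLAM receptors, by 4.45 ± 0.25. The last 2 were above background on 2 liver arrays and 1 liver array, so their liver levels are mostly near the detection limit.

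Of the surface receptors, 7 of 8 could be tested and all 7 were higher. Icos, an inducible costimulator of activated T cells, had the largest measured difference, 5.50 ± 0.28, with 6 of 8 liver arrays above background. It stood at 3.50, 1.21, 2.05 and 1.85 in inflammatory cells ADSC and at 1.95, 2.38, 3.18 and 2.87 in inflammatory cells PBS, against -2.88, -3.13, -3.48 and -3.15 in liver ADSC and -3.56, -2.67, -3.17 and -2.94 in liver PBS. Cell and liver arrays were far apart, while the levels of the ADSC and PBS cells overlapped.

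Cd28, the main costimulatory receptor, differed by 4.21 ± 0.28, Cd27, a costimulatory receptor of the TNF receptor family, by 3.64 ± 0.22, and Cd5, which tunes receptor signalling, by 4.18 ± 0.21. Cd28 and Cd27 were above background on 1 liver array each, so their liver levels are mostly near the detection limit, while Cd5 was above background on all 8. Cd2, Cd6 and Thy1, adhesion and surface proteins of T cells, differed by 3.87, 3.72 and 3.60. Thy1 was above the 75th percentile on all 16 arrays, at 4.97 to 5.30 in inflammatory cells ADSC and 4.65 to 6.08 in inflammatory cells PBS, against 1.03 to 1.95 in liver ADSC and 1.51 to 2.07 in liver PBS. Thy1 is also made by fibroblasts, and Cd2, Cd247, Lck and Zap70 also by natural killer (NK) cells. Cd40lg, the ligand with which helper T cells act on B cells, was above background on 0 of 16 arrays, so its level is unknown in all groups.

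The regulatory genes were the least well measured. Foxp3 was above background on 1 of 16 arrays, in inflammatory cells PBS, and its signal lay between -4.50 and -3.46 in inflammatory cells ADSC and between -5.06 and -2.94 in inflammatory cells PBS. Il2ra, the alpha chain of the interleukin-2 receptor, was above background on 2 of 16 arrays, 1 in each group of inflammatory cells. Neither could be tested. Ctla4, the inhibitory receptor that competes with Cd28, was above background on all 8 cell arrays and on 1 liver array, and differed by 4.30 ± 0.44. Tnfrsf4 (OX40), a costimulatory receptor of activated and regulatory T cells, was above background on all 16 arrays and differed by 3.43 ± 0.17.

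All 5 genes of the naive state were higher in inflammatory cells. Ccr7 differed by 5.47 ± 0.20, a 44.2-fold difference, and Satb1, a chromatin organiser of thymocytes and T cells, by 4.77 ± 0.29. Lef1 was above background on all 8 cell arrays and no liver array and was at least 7.74-fold higher by the nominal limit. Tcf7, which encodes TCF-1, differed by 3.09 ± 0.19 and Il7r, the receptor for the survival cytokine interleukin-7, by 2.65 ± 0.26. Bcl11b and Gata3, factors of T cell commitment and of the helper lineage, differed by 3.86 ± 0.24 and 3.55 ± 0.22, with 5 and 3 liver arrays above background.

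**Figure D2:**
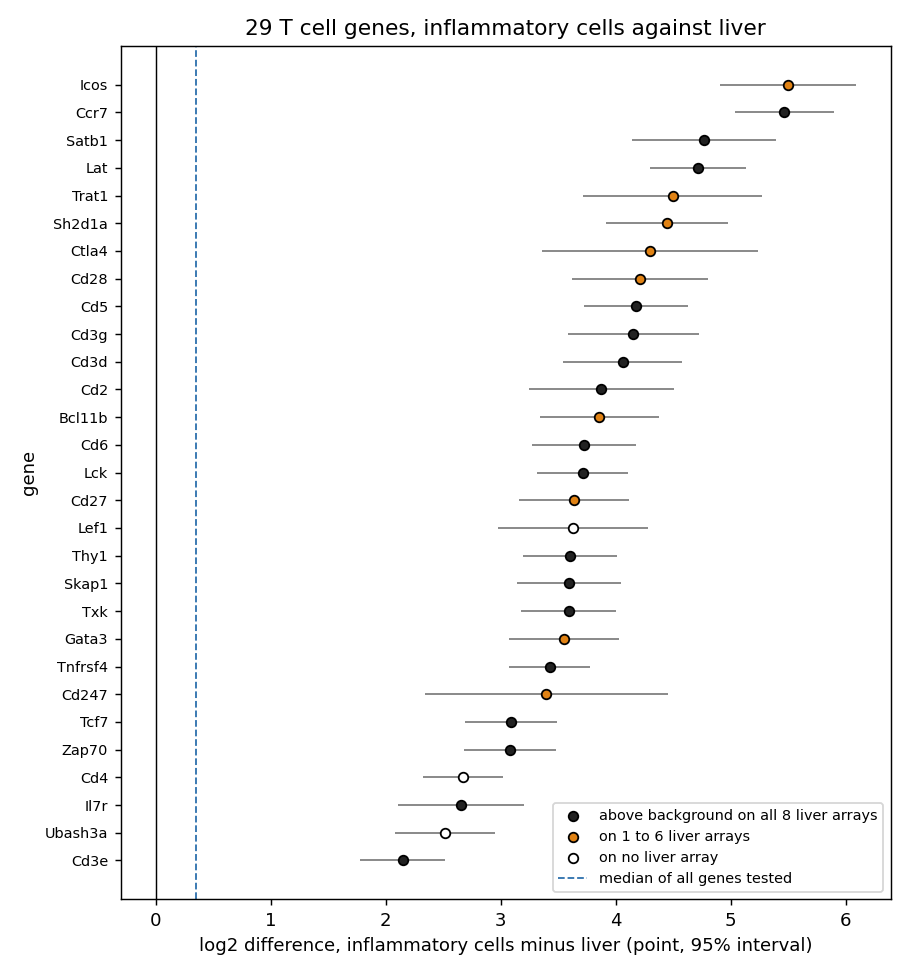
Difference of the 29 tested genes between inflammatory cells and liver on the log2 scale (point) with its 95% interval (line), ordered by size. All 29 intervals lie above the median of all genes tested (0.35, dashed), from Cd3e (2.15) to Icos (5.50), and white points mark Cd4, Ubash3a and Lef1, whose liver level is only a limit.

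The differences were not equal among the genes. Set against the mean level of Cd3d, Cd3e and Cd3g on each array, 8 of the other 23 genes with any liver array above background were still higher in inflammatory cells and 1 was lower by limma, against 3.63% of all genes higher and 83.7% lower on this scale. The 8 were Icos (2.05), Ccr7 (2.01), Satb1 (1.32), Lat (1.26), Trat1 (1.04), Sh2d1a (0.99), Cd28 (0.76) and Cd5 (0.72). The liver levels of Trat1, Sh2d1a and Cd28 were mostly near the detection limit, so their excess over the CD3 chains is uncertain. Before this scaling a second Trat1 probe, above background on 5 liver arrays, differed by 2.11, against 4.49 for the probe used. The lower one was Il7r (-0.80). For Cd4, Ubash3a and Lef1 the difference relative to the CD3 chains has no settled sign, since their liver level is only a limit. On this scale the median of all genes moved to -3.10, since the CD3 chains themselves differ between the sample types.

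Of the 9 genes with several probes, 8 had a second probe with the same direction, higher in inflammatory cells by 1.62 to 4.14. The exception was Il2ra, whose second probe was above background on no array and differed by 0.08. The second probes of Cd247 and Cd4 were above background on 3 inflammatory cell arrays each and on no liver array. Those of Cd6 and Tcf7 were above it on 1 liver array each and that of Txk on 2. For these genes the shared direction rests on mostly undetected liver signal. The second probes of Thy1, Il7r and Trat1 were above background on 7, 6 and 5 liver arrays.

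Other T cell lists differed in the same direction. For comparison, 48.9% of all genes tested were higher in inflammatory cells and 35.4% lower. In receptor signalling 18 of 19 tested genes were higher (median 2.69), among them Sit1 (4.32) and Grap2 (4.27), adaptors of receptor signalling. Of 19 helper T cell factors and cytokines 15 were higher and 1 lower (median 2.60). The largest differences were for Ifng (8.45), the interferon of type 1 helper and NK cells, and for Il17a. Il17a, the cytokine of type 17 helper and gamma delta T cells, had no liver array above background. It was at least 54.4-fold higher by the nominal limit. All 11 further regulatory T cell genes were higher (3.34), led by the anti-inflammatory cytokine Il10, which other leukocytes also make. Il10 had no liver array above background and was at least 31.5-fold higher by the nominal limit. All 12 activation and inhibitory receptors were higher (3.89), among them the early activation marker Cd69 (7.97). Of 10 genes of the naive state and circulation 8 were higher and 2 lower (2.24).

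Markers of several other leukocytes were also higher, against 48.9% of all genes tested. All 10 measured cytotoxic and NK cell markers were higher in inflammatory cells (median 3.74), as were all 5 B cell markers (4.43) and all 7 neutrophil markers (3.61), and 5 of 6 dendritic cell markers (2.20). Cell and liver arrays overlapped for each of the 7 neutrophil markers. Of 5 monocyte and macrophage markers 3 were higher and 0 lower (0.63, with 2 negative), close to the share of all genes. All 5 hepatocyte markers were lower (-5.35). The 6 exocrine pancreas markers were higher by a median of 8.96. Their part in the T cell difference was not tested. Without the 3 arrays with high pancreas transcripts all 29 genes were higher, by a median of 3.93, against 46.8% of all genes higher in that fit. Slides held both sample types, and within slides 1 to 5 the 29 genes were all higher, by medians of 4.49, 3.33, 3.98, 3.89 and 3.36.

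ADSC was next set against PBS in inflammatory cells, which asks whether the treatment changed the T cell genes of the fraction. None of the 29 tested genes passed the threshold (0 called by limma, with adjusted p between 0.108 and 0.998), while 1.19% of all 20158 genes did, 27 higher and 212 lower. At an unadjusted p under 0.05 there were 2 of 29, against 18.4% of all genes, and the ADSC and PBS arrays did not separate for any of the 29 genes, against 10.3% of all genes. The median difference was 0.22, against 0.03 for all genes. For 27 of the 29 genes the 95% interval spanned 0, and for 14 it lay within a 2-fold change in either direction. For 13 more the interval spanned 0 and reached past a 2-fold change, so for these neither such a change nor its absence could be shown at this number of arrays. The intervals of Ccr7 and Satb1 did not span 0.

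**Figure D3:**
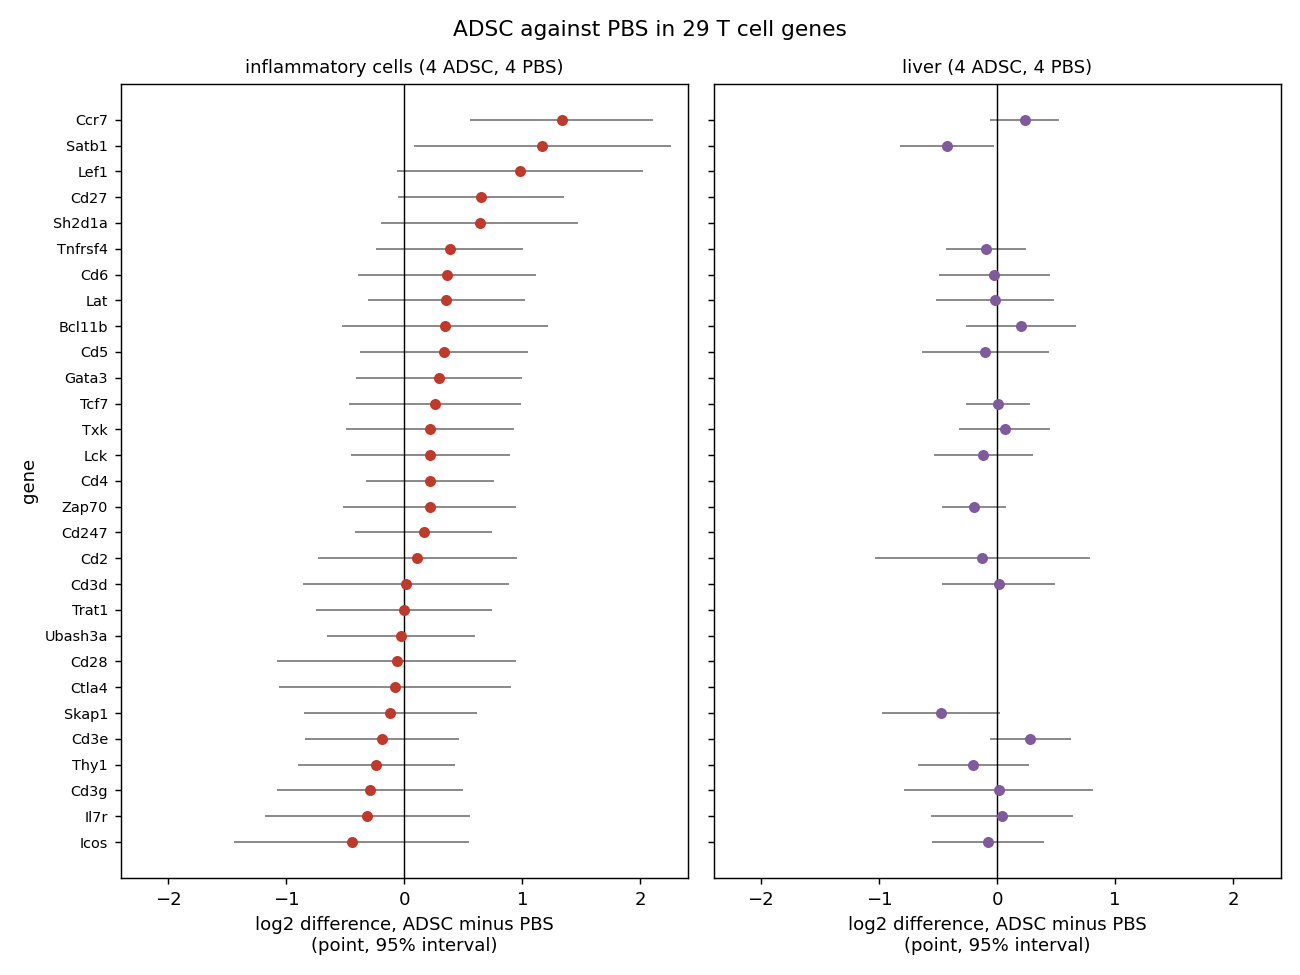
Difference of the 29 genes between ADSC and PBS on the log2 scale (point) with its 95% interval (line), in inflammatory cells at the left and for the 19 genes tested in liver at the right, 4 ADSC and 4 PBS arrays each. In inflammatory cells the points run from Icos (-0.44) to Ccr7 (1.33), and in liver from Skap1 (-0.47) to Cd3e (0.28).

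The CD3 chains showed no difference beyond their spread. Cd3d averaged 4.22 ± 0.36 in inflammatory cells ADSC and 4.21 ± 0.87 in inflammatory cells PBS (SD, n = 4 each), a difference of 0.02 with a 95% interval from -0.85 to 0.89. Cd3e differed by -0.19 (-0.84 to 0.46), Cd3g by -0.29 (-1.08 to 0.50) and Cd247 by 0.16 (-0.42 to 0.75).

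The same held for the signalling genes. Cd4 averaged -2.33 ± 0.32 in inflammatory cells ADSC and -2.55 ± 0.30 in inflammatory cells PBS, and differed by 0.22 (-0.32 to 0.76). Lck and Zap70 differed by 0.22 and 0.21, Lat by 0.35, Skap1 by -0.12 and Trat1 by 0.00. A second Trat1 probe, above background on all 8 inflammatory cell arrays, gave -0.53, so the size for Trat1 depends on the probe. Sh2d1a had the largest difference of the 9, 0.64 ± 0.38 with an adjusted p of 0.378 in limma.

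Among the surface receptors, Cd27 differed by 0.65 (-0.05 to 1.35). It stood at -0.47, -0.87, -0.47 and -0.90 in inflammatory cells ADSC, against -1.54, -1.65, -1.77 and -0.35 in inflammatory cells PBS. Thus 3 of the 4 PBS arrays were below every ADSC array, and PBS 14 was above them. Icos differed by -0.44 (-1.44 to 0.55), Thy1 by -0.24, Cd28 by -0.06, Cd2 by 0.11, Cd5 by 0.34 and Cd6 by 0.36. Ctla4 differed by -0.08 (-1.06 to 0.90) and Tnfrsf4 by 0.39 (-0.24 to 1.01).

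The naive state genes had the largest differences. Ccr7 stood at 4.49, 2.88, 3.98 and 3.72 in inflammatory cells ADSC and at 3.06, 2.43, 2.23 and 2.02 in inflammatory cells PBS. Of the ADSC arrays 3 were above every PBS array, and ADSC 8 lay just below PBS 11. The difference was 1.33 ± 0.35 (95% interval 0.56 to 2.11), with an adjusted p of 0.108 in limma.

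Satb1 stood at 4.47, 1.86, 3.01 and 3.04 in inflammatory cells ADSC and at 2.05, 1.82, 1.18 and 2.66 in inflammatory cells PBS. Again 3 ADSC arrays lay above every PBS array and ADSC 8 among them. The difference was 1.17 ± 0.49 (0.08 to 2.26, adjusted p 0.251 in limma).

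Lef1 stood at 0.52, -0.98, -0.21 and -0.45 in inflammatory cells ADSC and at -1.65, -1.65, -1.95 and 0.21 in inflammatory cells PBS. The PBS values fell into 3 low arrays and PBS 14, which was above all ADSC arrays but ADSC 7. The difference was 0.98 ± 0.47 (-0.06 to 2.02, adjusted p 0.294 in limma). Tcf7 differed by 0.26 (-0.47 to 0.99) and Il7r, the remaining gene of this group, by -0.31 (-1.18 to 0.56), so that the 5 genes did not all point the same way. The second probes of Il7r, Cd4 and Thy1 gave 0.31, -0.18 and 0.30, against -0.31, 0.22 and -0.24 for the probes used, so the sign for these 3 genes depends on the probe.

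**Figure D4:**
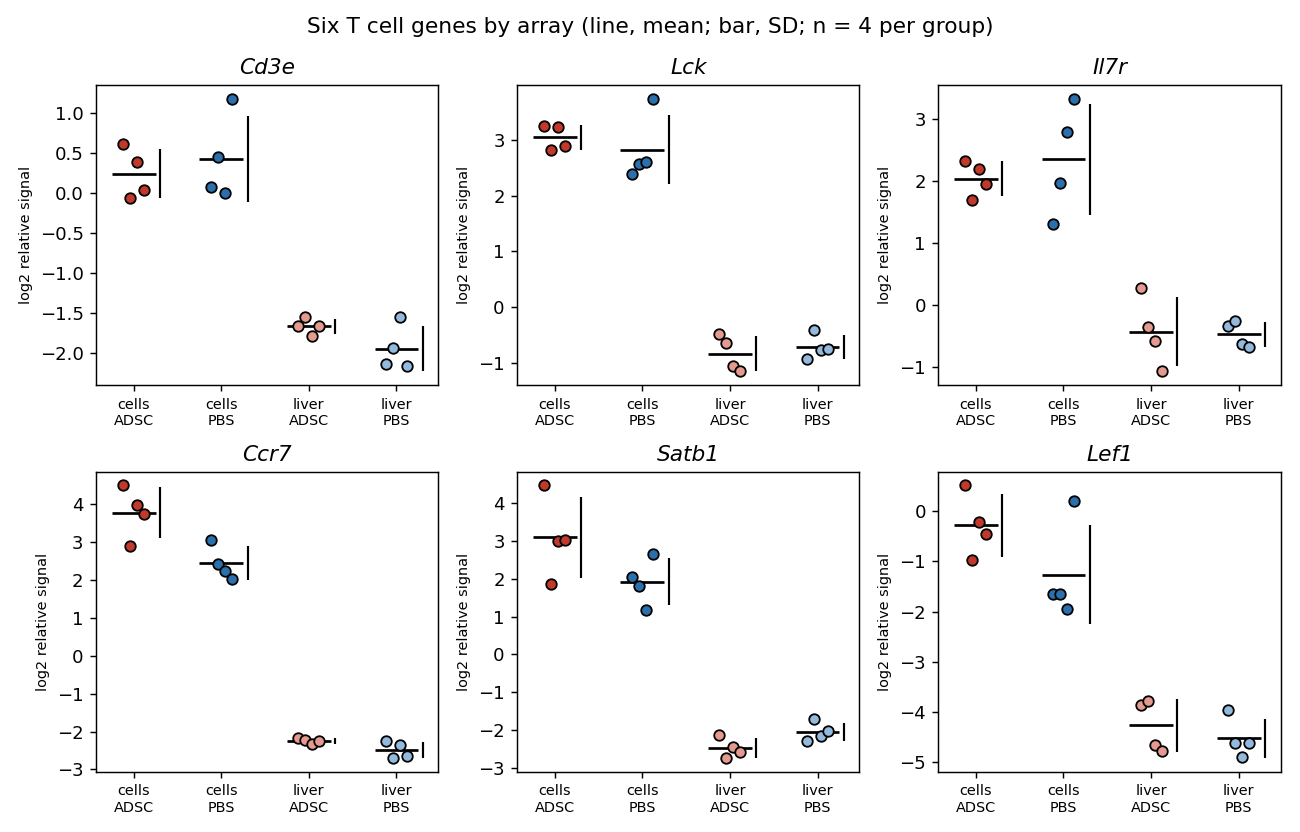
Level of Cd3e, Lck, Il7r, Ccr7, Satb1 and Lef1 on each array (points), with the group mean (line) and SD (bar, n = 4 per group), on the log2 scale relative to the 75th percentile of each array. Inflammatory cells ADSC and PBS overlap for all 6 genes, with 3 of 4 ADSC arrays above all PBS arrays for Ccr7 and Satb1, and all cell arrays lie above the liver arrays.

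The arrays of inflammatory cells differed among themselves. The mean of the 29 genes was 1.96, 1.08, 1.50 and 1.25 on ADSC 7 to 10 and 0.82, 1.02, 1.13 and 1.92 on PBS 11 to 14, that is 1.45 ± 0.38 with ADSC and 1.22 ± 0.48 with PBS (SD, n = 4 each). ADSC 7 had the highest value of 12 genes and PBS 14 of 15, so that 27 of the 29 genes peaked on these 2 arrays. PBS 11 had the lowest value of 14 genes.

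PBS 13 went both ways. Its Cd3d (4.93) and Cd3g (3.58) were the second highest and the highest of the 8 arrays, and its Il7r (2.80), Trat1 (0.70) and Icos (3.18) were second to 1 array. Yet it had the lowest value of 7 genes, among them Zap70 (0.90), Bcl11b (-0.87), Gata3 (-0.95), Lef1 (-1.95) and Satb1 (1.18). PBS 13 is also 1 of the 3 arrays with high pancreas transcripts.

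Which arrays enter set the size and direction of the shift. Without PBS 14, 27 of the 29 genes were positive with a median of 0.39 and 10 had an unadjusted p under 0.05, against 13.7% of all genes in that fit, yet none passed the adjusted threshold. Without the 3 arrays with high pancreas transcripts, 13 of 29 were positive with a median of -0.06, while Ccr7 differed by 1.56 and Satb1 by 0.88. Slides 2 and 3 were the only ones with 1 array of each treatment: within slide 2 the median was 0.31 with 22 of 29 positive, and within slide 3 it was 1.00 with 29 of 29 positive. Ccr7 and Satb1 differed by -0.17 and -0.19 within slide 2, and by 2.06 and 2.65 within slide 3. With the slide as a fixed block all 29 were positive, with a median of 0.55 and none past the threshold, and within scan days 2 and 3 the medians were 0.55 and 0.16. Of all settings run, Ccr7 passed only with normexp background correction and quantile normalization (1.61, adjusted p 0.048 in limma).

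Markers of other cells moved beside these genes. All 8 neutrophil markers were lower with ADSC by limma, by a median of -4.35, against 1.05% of all genes called lower. Without the 3 arrays with high pancreas transcripts 0 of 7 passed (median -4.26), and with the slide as a fixed block 0 of 8 (-4.84), settings under which no gene on the array passed. The summed level of the 8 genes lay between 8.58 and 9.17 on the ADSC arrays, against 10.20 to 11.24 on the PBS arrays. The elastase gene Elane, for example, lay between -4.84 and -2.90 with ADSC and between -0.03 and 2.79 with PBS. None of the 5 B cell markers tested passed, but all 5 were positive with a median of 1.00, led by Cd22 (1.88, adjusted p 0.0705 in limma), and Cd79a differed by 1.25. Of the 5, 4 had an unadjusted p under 0.05 in limma, against 18.4% of all genes. For 3 of the 5 the ADSC and PBS arrays did not overlap, against 10.3% of all genes. The summed level of the B cell markers was 5.48 to 6.69 with ADSC and 4.39 to 5.94 with PBS. B cells and mature dendritic cells also make Ccr7, and the 6 dendritic cell markers had a median of -0.24 with 0 past the threshold. Of 5 monocyte and macrophage markers 1 passed the threshold, Cd14 (-1.98), against 1.19% of all genes. Without the 3 arrays or with the slide block 0 of the 5 passed, and neither did any other gene. All 5 were negative (median -0.97), each with an unadjusted p under 0.05 in limma, against 18.4% of all genes. For 4 of the 5 the ADSC and PBS arrays did not overlap, against 10.3% of all genes. Without the 3 arrays the medians were 1.33 for the B cell, -1.02 for the monocyte and macrophage, -0.04 for the dendritic cell and 1.35 for the hepatocyte markers. The 5 hepatocyte markers were all positive with 0 past the threshold (median 1.24). The summed pancreas markers ran from 1.94 to 11.46 with ADSC and from 4.69 to 11.43 with PBS. The part of these cells in the values of the T cell genes was not tested.

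**Figure D5:**
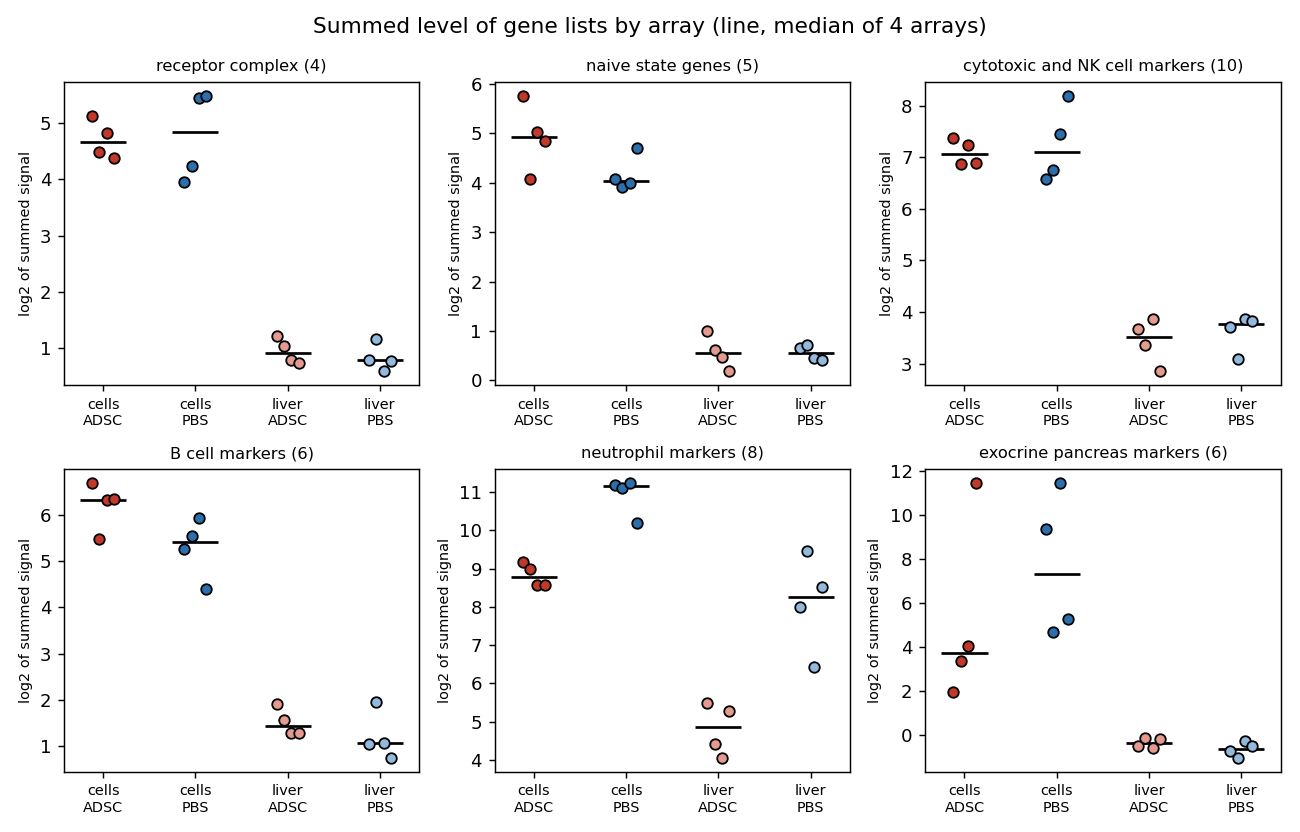
Summed level of the 4 receptor complex genes, the 5 naive state genes and 4 lists of markers of other cells on each array (points, with the median of 4 arrays as a line), as log2 of the summed relative signal. The receptor complex and the cytotoxic and NK cell markers overlap between inflammatory cells ADSC and PBS, the naive state genes and B cell markers overlap with higher ADSC medians, and the neutrophil markers separate.

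The other T cell lists gave no call in inflammatory cells either, where 1.19% of all genes passed. With that share, a count of 0 in lists of 10 to 19 genes says little. Of 19 receptor signalling genes 0 passed (median 0.06), with Nfatc1, a calcium-driven factor, at 0.71 and the adaptor Lcp2 at -0.67. Of 19 helper factors and cytokines 0 passed (0.07). Il17a had the largest difference of that list, -2.73 ± 0.63 with an adjusted p of 0.0689 in limma, while the chemokine receptors Ccr6 and Cxcr5, which B cells share, differed by 1.21 and 1.25. Of 10 genes of the naive state and circulation 0 passed, and 9 were positive with a median of 0.53, among them Igfbp4 (2.20), S1pr1 (1.06), the receptor for egress from lymph nodes, and Dapl1 (0.91). Of 12 activation and inhibitory receptors 0 passed (-0.41), with Cd226 at -1.01 and Cd44 at -0.63. Of 11 further regulatory T cell genes 0 passed (-0.14), and of 10 cytotoxic and NK cell markers 0 passed (-0.32), with the factor Eomes at 1.34 and the granzyme gene Gzmb at -0.75. At an unadjusted p under 0.05 in limma there were 2 receptor signalling genes, 5 helper factors and cytokines and 3 naive state and circulation genes. There were also 2 activation and inhibitory receptors, 1 regulatory T cell gene and 2 cytotoxic and NK cell markers, against 18.4% of all genes. The ADSC and PBS arrays did not overlap for 2, 3, 0, 1, 0 and 0 genes in that order, against 10.3% of all genes. Without the 3 arrays with high pancreas transcripts none of these lists had a gene past the threshold either, and the medians were -0.14 for receptor signalling, -0.12 for helper factors and cytokines, 0.33 for the naive state and circulation, -0.36 for activation and inhibitory receptors, 0.02 for regulatory T cell genes and -0.29 for cytotoxic and NK cell markers.

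In whole liver 19 of the 32 genes could be tested and 13 could not, among them Cd4, Foxp3, Ctla4, Lef1, Gata3 and Cd247. None of the 19 passed the threshold in limma (0 called), and neither did any of the 17306 genes tested, a background of 0%. At an unadjusted p under 0.05 there was 1 member, Satb1, against 4.64% of all genes. The median difference between ADSC and PBS was -0.02, against 0.04 for all genes. It ranged from -0.14 with 4 of 19 positive (without ADSC 7) to 0.11 with 13 of 19 positive (without PBS 12) when single arrays were left out. With all 8 arrays, the ADSC and PBS arrays did not separate for any of the 19 genes, against 2.88% of all genes.

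For 18 of the 19 genes the 95% interval in liver lay within a 2-fold change in either direction. Cd3d averaged 0.16 ± 0.40 in liver ADSC and 0.15 ± 0.22 in liver PBS (SD, n = 4 each). Cd3e averaged -1.67 ± 0.09 in liver ADSC and -1.95 ± 0.28 in liver PBS, a difference of 0.28 (-0.06 to 0.62). Satb1 stood at -2.13, -2.74, -2.44 and -2.58 in liver ADSC, against -2.29, -1.71, -2.15 and -2.03 in liver PBS, a difference of -0.42 ± 0.17. Skap1 differed by -0.47 ± 0.22 and Ccr7 by 0.24 ± 0.13. For Satb1 the ADSC array 7 lay among the PBS arrays and the other 3 below them.

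Within slide 2, which held 1 liver array of each treatment, 15 of 19 genes were positive with a median of 0.29. The 7 neutrophil markers tested in liver had a median of -4.35 with 0 past the threshold, which no gene in liver passed. All 7 had an unadjusted p under 0.05 in limma, against 4.64% of all genes. For all 7 the ADSC and PBS arrays did not overlap, against 2.88% of all genes.

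The treatment differences of the sample types were then set against each other. None of the 29 genes passed (0 called by limma), with a background of 0.0317% over 22109 genes, all of them lower. At an unadjusted p under 0.05 there were 2 genes, Satb1 (1.59 ± 0.59) and Ccr7 (a 95% interval from 0.23 to 1.96), each with an adjusted p of 0.395, against 10.1% of all genes. The other 27 ranged from -1.29 for Ctla4 to 0.72 for Lef1. The liver level of Ctla4 rests on 1 array above background, and no liver array measured Lef1. Only 19 of the 29 genes could be tested in liver, so for the others this difference draws on mostly undetected liver signal. In a fit of genes above background on every array, 13 of 17 members were positive and 0 passed. Their median was 0.34, against -0.09 for all genes in that fit. The median of the 29 genes was 0.22, against -0.03 for all genes. It was 0.00 with 15 of 29 positive without the 3 arrays with high pancreas transcripts, and 0.10 (without inflammatory cells PBS 11) to 0.48 (without inflammatory cells PBS 14) when single arrays were left out.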

How the data were processed

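The members and gene lists were chosen with earlier results of these data known. Each sample has 1 scanner file. Its processed intensity was made by the authors' scanner software (Feature Extraction 10.5.1.1 of Agilent, per the file headers), with background subtracted and no step between arrays. The deposited value table holds the same intensities (largest relative difference 0). For normexp (offset 50) the median spot and local background intensities, per the file headers, were used.

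Outlier spots (71 to 124 per array of 43379) were dropped and 0 were saturated. Of 41174 probes, 23374 were named by accession with GRCm38.p6 and the others kept the file's name. Tests were limited to genes seen well above background on 4 or more arrays of a fit. Fits used limma 3.58.1 in R 4.3.3 with a threshold of 0.05 on the adjusted p, within each sample type for ADSC against PBS and over all 16 arrays for the other contrasts. All 32 members are named. Other lists contributed the 2 genes with the smallest p and the 2 with the largest difference, of which a part is printed. Alternatives covered background correction, scaling, filter, probe choice, slide, scan day and single arrays, and the fit was tested on simulated data.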

Additional observations from a re-analysis of the deposited data

Results flagged for a closer look

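Of 128 gene and group combinations examined, 10 (7.81%) had 1 array far from the other 3, measured as the gap to the nearest array over the group's range against Dixon's 95% critical value. Chance gives about 1 in 20.

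Of these, 4 fell on inflammatory cells PBS 14. Lck stood at 3.74 there, against 2.39 to 2.60 on the other 3 PBS arrays, Cd27 at -0.35 against -1.77 to -1.54, Tcf7 at 2.15 against 0.74 to 0.88, and Lef1 at 0.21 against -1.95 to -1.65. Trat1 stood at 0.79 on inflammatory cells ADSC 7, against -0.20 to -0.06 on the other ADSC arrays.

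In liver ADSC, array 10 was high for Cd247 (-1.59, against -5.76 to -5.55) and low for Cd5 (-1.26, against -0.72 to -0.62) and Cd6 (-0.20, against 0.22 to 0.30). Ctla4 stood at -2.51 on liver ADSC 8, against -5.79 to -5.36. Those Cd247 and Ctla4 values were the only ones of their genes above background among the 8 liver arrays. Cd2 stood at -0.87 on liver PBS 12, against -2.39 to -2.37 on the other liver PBS arrays.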

How the results depend on the processing

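For inflammatory cells against liver, 837 of 855 gene values under alternatives kept their direction and their side of the threshold. The median was 2.45 with normexp before the 75th percentile, 2.45 with normexp and quantile normalization and 4.04 with the percentile over detected probes. Of the 17 members above background on every array all 17 were higher. Relative to the CD3 chains 11 of 26 passed, with a median of 0.22. Of these, 8 were higher, and Cd4, Il7r and Ubash3a were lower, against 3.63% of all genes higher and 83.7% lower. The sign reversed for 7 genes: Cd247 (-0.055), Cd4 (-0.78), Zap70 (-0.37), Ubash3a (-0.94), Tnfrsf4 (-0.025), Il7r (-0.80) and Tcf7 (-0.37). Among them Cd247, Zap70, Tnfrsf4 and Tcf7 did not pass. That scale subtracts genes which themselves differ, and the values of Cd4 and Ubash3a are limited by a liver level below detection. Leaving out single arrays gave 29 of 29 and medians of 3.56 to 3.78.

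For ADSC against PBS in inflammatory cells, 604 of 605 gene values stayed on their side of the threshold, and 75 changed sign without passing. The count was 1 with normexp and quantile normalization (Ccr7). Leaving out single arrays gave 0 called and medians of 0.10 (without ADSC 7) to 0.39 (without PBS 14). All-gene counts moved more: 239 passed, 817 with the slide as a random block, 505 without ADSC 7, 67 without ADSC 9, 76 without PBS 12, 86 without ADSC 10, 137 without ADSC 8, 359 with normexp before the percentile, 140 with the percentile over detected probes, 110 with no filter, 153 with the scan day as a term, 28 relative to the CD3 chains, and 0 with the slide as a fixed block or without the arrays rich in pancreas transcripts. For the difference of treatments 7 genes passed, and 0 to 72 did under the alternatives, none of them a member. In liver the median was 0.29 with the slide as a fixed block, and the difference between sample types had a median of 0.65 with it. The cause was not tested. With the percentile over detected probes, the all-gene median was 0.68 between sample types and 0.15 for treatment in the cells.

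With the array number as a replicate block, 29 genes passed between sample types (median 3.71) and 0 for the difference of treatments (0.22). Same-numbered samples had correlations of -0.14 to 0.17 over 12823 genes. Samples with different numbers were not compared in this way, so these values do not settle whether the numbers pair the samples. Dim signal limits Cd40lg, Foxp3 and Il2ra in all groups, and Cd4, Ubash3a and Lef1 in liver.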
